A study of Rattus norvegicus with 3 samples.

Results

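TMC1 is 1 of 5 fibroblast clusters that the authors named in a single-cell library of rat thymic stroma, and the deposited annotation was taken as it stands. The cluster held 1377 of the 13226 annotated cells of that library, or 10.4% (9.90 to 10.9%), and 16.8% of the 8216 cells of the 5 fibroblast clusters. The other 4 are TMC2 (3080 cells), TMC3 (1152 cells), TMC4 (1249 cells) and capFb (1358 cells). The name TMC1 is used as deposited, since the sources used here do not spell it out. Each name is a cluster drawn from the same genes that are compared below, so every difference in gene level between clusters is a description of these cells and not a test.

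Thymi came from rats of the inbred Lewis strain, aged 8 weeks, with no genetic change or treatment named in the labels. Stromal cells were freed with Liberase TH and DNase I, enriched for cells without CD45 (the surface protein of blood cells) by magnetic beads and flow sorting, and sequenced as 1 droplet library. Thymocytes gave a second library, and a 10 µm section of 1 thymus, with both lobes set back to back, was read on a Stereo-seq chip, which records RNA together with its position. There was 1 library per group and the number of pooled rats is not given in the sources used here, so no value below has a replicate check.

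Thymic fibroblasts form the capsule, the septa and the mesenchyme around vessels, and are best known for the matrix and the growth factors they supply to thymic epithelium. In mouse and human thymus, capsular fibroblasts that carry DPP4 and PI16 are distinguished from fibroblasts of the medulla. PDGF receptor alpha and type I collagen mark most of these cells, whereas BMP and FGF signals from mesenchyme act on epithelial growth and on the transcription factor Foxn1 in development.

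The TMC1 cells held 14035290 UMIs (unique molecular identifiers, each standing for 1 captured RNA molecule), with a median of 9749 UMIs and 3436 genes per cell and a median mitochondrial share of 1.01%. Median depth in the other fibroblast clusters ran from 8143 UMIs in TMC3 to 11378 in capFb. Levels are given as CPM: the UMIs of a gene summed over all cells of a cluster, per 1000000 UMIs of that cluster. Ranges in parentheses are exact 95% intervals (Poisson for levels, Clopper-Pearson for shares, conditional binomial for ratios of levels) and cover counting error only, not the spread between animals. Genes with at least 100 UMIs over the 5 clusters, 13530 in all, entered the comparisons.

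Both markers of the cluster's label were present. Pdgfra, the alpha receptor for platelet-derived growth factor, stood at 539 CPM (527 to 552) in TMC1, 589 in TMC2, 402 in TMC3, 290 in TMC4 and 310 in capFb. A Pdgfra UMI was found in 95.9% of TMC1 cells and in 5.26% of the epithelial cluster TEC-b, which should lack it and whose median depth was 10616 UMIs. With every cell thinned to 2000 UMIs these shares were 62.2% and 1.59%. Col1a1, a chain of type I collagen, was at 7465 CPM in TMC1, 2745 in TMC2, 1796 in TMC3, 757 in TMC4 and 13156 in capFb. It was found in 99.6% of TMC1 cells and 25.6% of TEC-b cells, or 98.2% and 6.14% after thinning. Neither marker was at its highest in TMC1: Pdgfra was higher in TMC2 and Col1a1 in capFb.

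Epithelial, endothelial and thymocyte RNA in TMC1 lay within the range of the other fibroblast clusters, and mesothelial markers were at the top of it. The 10 markers of thymic epithelium summed to 48.8 CPM (41.5 to 54.3 over the 5 clusters), with Psmb11 at 1 UMI and none at 0. The 12 endothelial markers summed to 25.9 CPM (20.9 to 47.0) and the 10 thymocyte markers to 8.26 CPM (7.73 to 11.6). The 13 myeloid and B cell markers came to 37.8 CPM (28.4 to 46.6), of which Cd14 made up 28.5, and Cd79b and Ms4a1 were at 0. Markers of mural cells, the contractile cells of vessel walls, came to 587 CPM, of which the channel subunit Abcc9 gave 426, against 580 in TMC2, 2859 in TMC3, 6084 in TMC4 and 258 in capFb. Mesothelial markers summed to 87.1 CPM, mostly Wt1 at 58.1, against 32.0 in TMC2, 61.1 in TMC3, 8.48 in TMC4 and 85.6 in capFb. Of the Schwann cell markers, 5 of 10 were at 0, among them Sox10. The 8 adipocyte markers summed to 803 CPM, of which lipoprotein lipase (Lpl) gave 597, while Adipoq had 17 UMIs, Plin1 had 10 and Lep had 0. The same sum was 720 CPM in TMC2, 1523 in TMC3, 1784 in TMC4 and 511 in capFb. Lpl alone gave 694, 1473, 1770 and 477 of these, so it was lower in TMC1 than in the other TMC clusters.

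Over all 13530 genes TMC1 was closest to TMC2 in expression. The correlation of log2(CPM + 1) across genes was 0.974 with TMC2, 0.939 with capFb, 0.931 with TMC3 and 0.830 with TMC4; genes are not independent replicates, so these values are descriptive. The median log2 ratio of TMC1 to the other cluster over all genes was -0.01 for TMC2, -0.10 for TMC3, -0.08 for TMC4 and 0.12 for capFb. At least 2-fold higher in TMC1 were 587 genes against TMC2 (4.34% of those compared), 756 against TMC3 (5.59%), 1582 against TMC4 (11.7%) and 1514 against capFb (11.2%). At least 2-fold lower in TMC1 were 406 (3.0%), 1200 (8.87%), 1677 (12.4%) and 605 genes (4.47%), in the same order. Counts within the gene lists below are to be read against these shares of all genes.

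Genes at their highest in TMC1 among the fibroblasts included the complement protease adipsin, the BMP-binding protein Bmper and the fatty acid carrier Fabp4, and most were found in a minority of its cells. In 182 genes (1.35%) the TMC1 level was at least 1.5-fold above all 4 other clusters, and 57 genes (0.421%) were at least 1.5-fold below all 4. Of the 182, 83 were led at least 2-fold, 41 at least 3-fold and 16 at least 5-fold, and the counting interval of the lead lay wholly above 1.5 for 103. Only 12 of them had a UMI in at least 50% of the TMC1 cells, 75 in 10 to 50% and 95 in under 10%. The next highest cluster was TMC2 for 75 genes, capFb for 60, TMC3 for 37 and TMC4 for 10. Outside the fibroblasts, 114 of the 182 were higher in another type of the library, and 68 were highest in TMC1.

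Cfd, which encodes adipsin (complement factor D, the protease that starts the alternative complement pathway and a product of fat cells), was led most. It stood at 76.7 CPM (72.2 to 81.4) in TMC1, 4.57 in TMC2, 6.34 in TMC3, 3.38 in TMC4 and 5.26 in capFb. The TMC1 level was 12.1-fold (9.44 to 15.7) that of TMC3, the next cluster. A Cfd UMI was seen in 15.8% of TMC1 cells and 1.87% of TEC-b cells, or 7.01% and 0.578% at 2000 UMIs. Among cells outside the fibroblasts the myeloid cluster had 53.2 CPM. Cells free of any UMI of the epithelial, endothelial, thymocyte, myeloid and B cell markers (503 of the 1377 TMC1 cells) gave a lead of 6.51-fold.

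Several regulators of growth factor signalling were led as well. Bmper, a secreted protein that binds BMPs, was at 114 CPM in TMC1, 22.3 in TMC2, 17.6 in TMC3, 2.86 in TMC4 and 11.5 in capFb, a lead of 5.12-fold (4.66 to 5.64) over TMC2. Bmper was found in 24.7% of TMC1 cells and 6.41% of TEC-b cells. In cells free of the other markers its lead was 3.15-fold. Gfra1, a receptor for the neurotrophic factor GDNF, was at 36.1 CPM in TMC1, 7.57 in TMC2, 7.48 in TMC3, 0.260 in TMC4 and 2.54 in capFb (4.76-fold, 4.04 to 5.63), although cortical epithelium (cTEC) had more, at 64.2 CPM. Ccn5, a matricellular protein of the CCN family, was at 39.0 CPM against 12.4 in TMC2, 4.83 in TMC3, 0.519 in TMC4 and 8.79 in capFb. Ccn5 was led 3.14-fold (2.73 to 3.61) and had a UMI in 15.2% of TMC1 cells and 0.216% of TEC-b cells.

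A second set of led genes acts on lipids, steroids or foreign compounds. Fabp4, a carrier of fatty acids, was at 165 CPM in TMC1, 14 in TMC2, 42.4 in TMC3, 11.5 in TMC4 and 17.3 in capFb, which is 3.88-fold (3.51 to 4.30) over TMC3. Capillary endothelium (capEC) had 10722 CPM of Fabp4, and without the TMC1 cells in the top 1% of depth, with the same done in each cluster, the lead was 2.54-fold. Cyp1b1, a cytochrome P450, was at 106 CPM against 11.4, 8.81, 2.08 and 15.6 in TMC2, TMC3, TMC4 and capFb (6.80-fold over capFb, 5.95 to 7.80), with 267 CPM in cTEC. Pla2g2a, a secreted phospholipase, was at 122 CPM against 21.8, 19.5, 7.44 and 14.8 (5.61-fold over TMC2, 5.10 to 6.17), and the early epithelial progenitor label had 2195. All 3 were thus at their highest in TMC1 among fibroblasts but higher in another type of the library.

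The other led genes named by the rule were of several kinds. Prg4, the lubricant proteoglycan of joints and mesothelial surfaces, was at 56.4 CPM in TMC1, 16.0 in TMC2, 7.01 in TMC3, 0.433 in TMC4 and 4.58 in capFb (3.51-fold, 3.12 to 3.96), with a UMI in 18.4% of TMC1 cells and 0.648% of TEC-b cells. Of 5 mesothelial markers compared, 3 were at least 2-fold higher in TMC1 than in TMC2 and 0 lower, but 1 was higher and 2 lower than in TMC3. Msln had 85 UMIs in TMC1 and 9 in TMC2, Upk1b 64 and 6, and Upk3b 25 and 8. These are raw counts, out of 14035290 UMIs in TMC1 and 26685773 in TMC2. The part of mesothelial RNA in the Prg4 level was not tested. C6, a part of the membrane attack complex of complement, was at 38.3 CPM against 12.1, 5.87, 3.63 and 5.57 (3.16-fold, 2.75 to 3.64), and in cells free of other markers the lead was 1.60-fold. Sox9 and Klf5, both transcription factors, were at 16.0 and 34.6 CPM and led 3.8-fold and 3.02-fold over TMC2. The lead of Sox9 was 2.40-fold in cells free of other markers. Clec1a (a C-type lectin, 18.6 CPM), St3gal6 (a sialyltransferase, 22.2 CPM), Stc1 (a secreted glycoprotein, 17.0 CPM) and Glb1l3 (a galactosidase-like gene, 16.7 CPM) were led 3.90-fold, 3.50-fold, 3.44-fold and 3.13-fold. Stc1 was led 1.79-fold in cells free of other markers. Outside the fibroblasts several of these genes were higher: Prg4 at 67.9 CPM and Klf5 at 54.8 in the epithelial labels mTEC1 and mTEC2. Sox9 was at 226 CPM in goblet-like mimetic epithelium and St3gal6 at 63.4 in B cells. In endothelium, Clec1a was at 297 CPM (label vEC) and Stc1 at 69.9 (capEC). C6 and Glb1l3 were at most 12.8 and 2.91 CPM outside the fibroblasts.

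**Figure D1:**
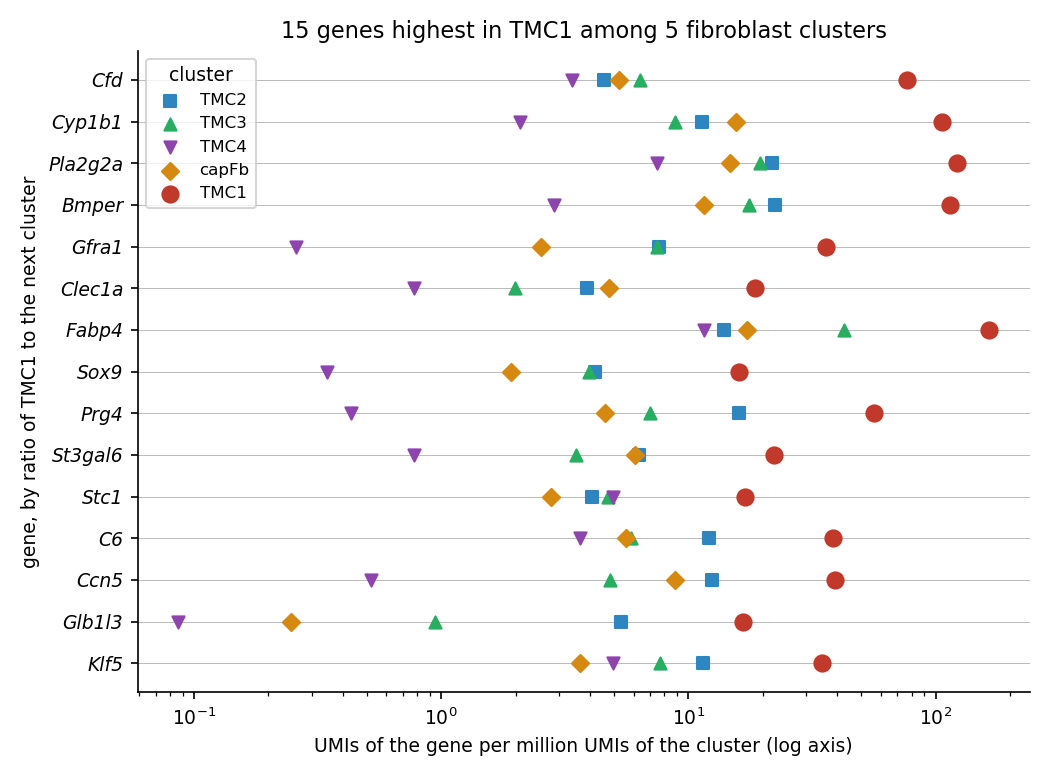
Level of the 15 genes that TMC1 led most, in CPM on a log axis, with 1 point per fibroblast cluster and genes ordered by the ratio of TMC1 to the next cluster. Cfd stands farthest from the next cluster, at 76.7 CPM in TMC1 and 6.34 in TMC3, and TMC4 has the lowest level of most of these genes.

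Genes lowest in TMC1 were fewer and closer to the next cluster. Only 9 of the 57 had at least 100 UMIs in the lowest other cluster, and 6 met the naming rule. Bmp2, a BMP ligand, was at 10.5 CPM in TMC1, 30.7 in TMC2, 22.2 in TMC3, 20.2 in TMC4 and 16.7 in capFb, or 0.627 (0.509 to 0.769) of the capFb level. Nckap5 was at 18.4 CPM in TMC1 against 38.4 in TMC2, 162 in TMC3, 364 in TMC4 and 60.5 in capFb. Itih5, a protein that binds hyaluronan, was at 394 CPM against 602, 679, 703 and 892. Il13ra1, a chain of the IL-13 receptor, was at 51.3 CPM against 80.8, 116, 129 and 103. Hmgn3, a nucleosome-binding protein, and Phactr1, a regulator of actin and phosphatase, were at 0.536 and 0.580 of the TMC2 level. When cells were thinned to 2000 UMIs, 19 of the 57 genes were still called.

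Among BMP and TGF-beta ligands and antagonists (23 of 25 compared), 5 were at least 1.5-fold above all other fibroblast clusters in TMC1 and 1, Bmp2, below them. Gdf10, a TGF-beta family ligand, was at 189 CPM (182 to 197) in TMC1, 75.1 in TMC2, 21.9 in TMC3, 1.73 in TMC4 and 26.7 in capFb, a lead of 2.52-fold (2.38 to 2.67). Fst (follistatin, which binds activin) was at 443 CPM against 280, 80.1, 10.2 and 214, a lead of 1.58-fold (1.53 to 1.64). Chrdl1, a secreted BMP antagonist, was at 101 CPM in TMC1 and 62.7 in TMC2 (1.61-fold, 1.5 to 1.73). Bmper is given above, and the latent TGF-beta binding protein Ltbp2 was at 8.69 CPM in TMC1 and at most 1.51 in the others. Bmper, Chrdl1 and Fst among these 5 bind BMPs or activin outside the cell. Bmp4, a ligand of the same pathway, was at 159 CPM in TMC1, 292 in TMC2, 84.3 in TMC3, 36.2 in TMC4 and 68.2 in capFb. In pairs, 5 members were at least 2-fold higher and 4 lower than in TMC2, 10 and 4 for TMC3, 15 and 3 for TMC4, and 13 and 4 for capFb. The median ratio over members was 1.02 against TMC2 (0.992 over all genes) and 3.41 against TMC4 (0.945 over all genes).

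Complement genes included 4 of 15 compared that TMC1 led: Cfd, C6, C3 and Cfb. Cfb, factor B and the substrate of adipsin, was at 1196 CPM in TMC1, 796 in TMC2, 237 in TMC3, 18.4 in TMC4 and 149 in capFb, 1.5-fold (1.47 to 1.53) over TMC2. C3, the central component, was at 52.1 CPM against 28.6, 31.8, 25.4 and 4.08, 1.64-fold (1.44 to 1.87) over TMC3. C7 was among the most abundant transcripts of every TMC cluster, at 9284 CPM in TMC1, 10851 in TMC2, 6731 in TMC3, 4725 in TMC4 and 3047 in capFb. C4b was at 3027 CPM in TMC1, and its reads can be split with the near-identical C4a, so that level is uncertain. Clu (clusterin, an inhibitor of the attack complex) was at 112 CPM in TMC1 against 3793 in TMC4. Against capFb, 8 of 15 members were at least 2-fold higher and 1 lower, with a median ratio of 3.05 where all genes had 1.09.

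In the insulin-like growth factor system, TMC1 had the highest levels of Igfbp3 and Igf1 of the 5 clusters but not of Igfbp5. Igfbp3, the main carrier of circulating IGF, was at 1147 CPM in TMC1, 553 in TMC2, 633 in TMC3, 274 in TMC4 and 63.5 in capFb, a lead of 1.81-fold (1.76 to 1.86) over TMC3, which was 1.03-fold without the TMC1 cells that held a Cfd UMI. Igf1 itself was at 2565 CPM in TMC1, 1270 in TMC2, 825 in TMC3, 387 in TMC4 and 1894 in capFb, which is the highest level of the 5 but under the 1.5-fold threshold against capFb. Igfbp5 was at 705 CPM in TMC1, between 63.7 in TMC2 and 4366 in capFb. Of the 6 IGF-binding proteins compared, 2 (Igfbp2 and Igfbp3) were led by TMC1, and Igfbp2 was low at 10.6 CPM. Against TMC4, 5 of 6 were at least 2-fold higher, with a median ratio of 9.08.

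Genes of capsular and adventitial fibroblasts placed TMC1 above the other TMC clusters and below capFb. Of 16 compared, 10 were at least 2-fold higher in TMC1 than in TMC2, 7 than in TMC3 and 15 than in TMC4, with none lower, whereas against capFb 1 was higher and 12 were lower. The median ratio was 3.33 against TMC2 and 0.201 against capFb. Pi16, a peptidase inhibitor and a marker of adventitial fibroblasts, was at 371 CPM in TMC1, 39.2 in TMC2, 217 in TMC3, 18.5 in TMC4 and 4894 in capFb. Dpp4, a surface peptidase, was at 154 CPM against 46.7, 37.4, 3.63 and 820. Mfap5, a microfibril protein, was at 1004 CPM against 233, 253, 18.9 and 4055, and fibrillin-1 (Fbn1) at 1660 against 494, 774, 523 and 6650. Cd34, a sialomucin of stromal progenitors and vessels, was at 713 CPM against 473, 172, 13.4 and 1097.

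Several abundant matrix genes likewise lay above the other TMC clusters and below capFb. Col3a1 was at 17114 CPM in TMC1, 8789 in TMC2, 7106 in TMC3, 4434 in TMC4 and 17903 in capFb. Of 7 fibrillar collagens, 1 was at least 2-fold higher in TMC1 than in TMC2, 4 than in TMC3 and 5 than in TMC4, while Col11a1 was lower than in TMC2 (22.0 CPM against 58.9) and the only one at least 2-fold higher than in capFb (5.45 CPM), with 0 lower. Of 18 other collagens, 0 were higher and 3 lower than in TMC2, and 10 higher and 2 lower than in capFb. Fn1 (fibronectin) was at 585 CPM in TMC1 against 237, 259, 84.0 and 2599. Among 17 genes of elastic fibres, 5 were at least 2-fold higher than in TMC2 and 1 lower, while 3 were higher and 4 lower than in capFb. Adam12, a membrane protease, was led by TMC1 at 237 CPM against 103, 71.3, 22.0 and 30.2 (2.30-fold, 2.19 to 2.42), and Spon2, a matrix protein, at 314 CPM against 202 in TMC2 (1.56-fold).

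No chemokine was at its highest in TMC1 by the 1.5-fold threshold, and most of them were above the capFb level. Only 1.35% of all genes met that threshold, so 0 of 16 does not set chemokines apart. Of 16 chemokines compared, 1 was at least 2-fold higher and 4 lower than in TMC2, 2 and 9 for TMC3, 4 and 7 for TMC4, and 10 and 0 for capFb. Cxcl14 was at 864 CPM in TMC1, 3132 in TMC2, 862 in TMC3, 137 in TMC4 and 90.6 in capFb. Cxcl12, which attracts early thymocyte progenitors, was at 872 CPM against 1124, 987, 768 and 426. Ccl19, a ligand of CCR7, was at 120 CPM in TMC1 and 78.3 in TMC2, against 3748 in TMC3 and 13615 in TMC4. Il33, an alarmin cytokine, was at 649 CPM in TMC1, 612 in TMC2, 1859 in TMC3, 2872 in TMC4 and 1430 in capFb. Il7, the survival factor of early T cells, was at 8.12 CPM in TMC1, 21.7 in TMC2, 90.3 in TMC3 and 193 in TMC4. Of 13 antigen presentation genes, none differed 2-fold between TMC1 and either TMC2 or capFb, and 4 were lower than in TMC3 and 6 than in TMC4.

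Growth factors for epithelium went both ways against TMC2 and against capFb. Of 19 compared, none was led by TMC1, 4 were at least 2-fold higher and 2 lower than in TMC2, and 10 were higher and 4 lower than in capFb. Fgf10, a mesenchymal growth factor for thymic epithelium, was at 127 CPM in TMC1, 180 in TMC2, 64.2 in TMC3, 4.50 in TMC4 and 48.8 in capFb. Ptn (pleiotrophin, a heparin-binding growth factor) was at 928 CPM in TMC1, 3309 in TMC2, 2055 in TMC3, 925 in TMC4 and 130 in capFb. Vegfa, the vascular growth factor, was at 229 CPM in TMC1, 88.2 in TMC2 and 358 in capFb. Among 17 Wnt ligands, R-spondins and antagonists, 4 were higher and 2 lower than in TMC2. Sfrp1, a Wnt antagonist, was at 1202 CPM in TMC1, 1789 in TMC2 and 191 in capFb, and its relative Sfrp2 at 243, 81.0 and 221. Ntn1, the axon guidance protein netrin-1, was led by TMC1 at 64.3 CPM against 28.2 in TMC2 (2.28-fold, 2.07 to 2.51).

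Of 51 transcription factors compared, TMC1 led 3 and was below all 4 others in none. Pparg, the master regulator of fat cell formation, was at 36.4 CPM in TMC1, 10.3 in TMC2, 6.82 in TMC3, 1.12 in TMC4 and 16.1 in capFb, 2.26-fold (1.95 to 2.64) over capFb. Tbx18, a T-box factor of mesenchymal progenitors, was at 20.3 CPM and 1.64-fold (1.36 to 1.98) over capFb. Without the TMC1 cells that held a Cfd UMI, Pparg was at 15.5 CPM and Tbx18 at 13.4, or 0.966 and 1.08 of the capFb level. Sox9 is given above. In pairs, 11 factors were at least 2-fold higher and 2 lower than in TMC2, and 11 higher and 7 lower than in capFb.

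**Figure D2:**
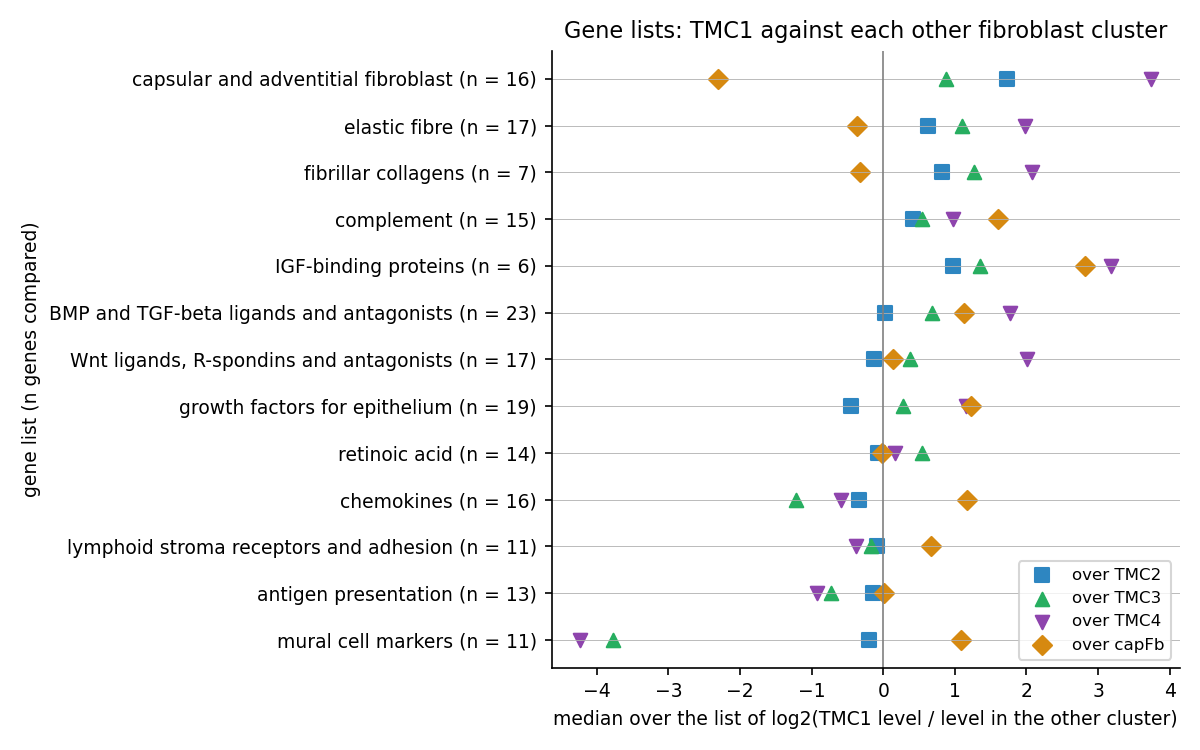
Median, over the compared members of each gene list, of the log2 ratio of TMC1 to each other fibroblast cluster, with 1 point per comparison and a line at equal levels. The capsular and adventitial list lies to the right of the line against TMC2 (median ratio 3.33) and to the left against capFb (0.201), and the chemokines lie to the left against the TMC clusters and to the right against capFb (2.26).

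The extremes of each pairwise comparison were chosen by the same rule, and several of them also differed from other clusters. Against TMC2 the highest ratios were those of Dhrs9 (18.0 CPM in TMC1 and 0.187 in TMC2), Hecw2, Kcnq5, Cfd and Ildr2, and all but Cfd were higher still in capFb. The lowest ratios against TMC2 were those of Kcnb2 (5.2 CPM in TMC1), Asic2, Cyp2e1, Rgs16 and Adgrl3. Against TMC3 the contractile protein gene Tagln was among the lowest, at 19.7 CPM in TMC1 against 1544 in TMC3, and Hdac9, a histone deacetylase, at 4.77 CPM was among the lowest against both TMC3 and TMC4. Epyc, a small proteoglycan, was at 50.1 CPM in TMC1 and 0.173 in TMC4. Against capFb, Serpine2, an inhibitor of serine proteases, was at 711 CPM in TMC1 and 38.7 in capFb (18.4-fold), and 33.7-fold when cells were thinned to 2000 UMIs.

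To ask how far TMC1 lies between TMC2 and capFb, genes were chosen from those 2 clusters without reference to TMC1. Of 794 genes at least 2-fold higher in capFb than in TMC2, the TMC1 level lay between both in 679 (85.5%), above both in 36 and below both in 79. Of 1343 genes at least 2-fold higher in TMC2, it lay between in 1147 (85.4%), above both in 187 and below both in 9. On a log scale where 0 is the TMC2 level and 1 the capFb level, the median position of TMC1 was 0.385 (quartiles 0.205 and 0.550) for the first set and 0.251 (0.111 and 0.405) for the second. TMC1 was at least 1.5-fold from both clusters in 334 (42.1%) and 487 (36.3%) of these genes. By count, the summed level of TMC1 lay between those of TMC2 and capFb in most of these genes, and its median position was nearer to TMC2. It was at least 1.5-fold from both in only a minority of each set. The genes were chosen for a gap between TMC2 and capFb, so any cluster resembling TMC2 can fall between them by that choice. The count alone is therefore not read as an intermediate state. TMC3 and TMC4 were not placed on this scale, so the position is not shown to be particular to TMC1.

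Such genes were then read in single cells thinned to 2000 UMIs. The 20 genes with the largest ratio of capFb to TMC2 among those found in at least 50% of capFb cells, Pi16, Igfbp5, Sema3d, Anxa3 and Cd55 among them, gave a median of 0 UMIs per TMC2 cell, 2 per TMC1 cell (5th to 95th percentile 0 to 12) and 27 per capFb cell (10 to 56). Of 1370 TMC1 cells, 569 (41.5%) lay above the 95th percentile of TMC2, 8.03% reached the 5th percentile of capFb, 33.5% lay between those limits and 25.4% had none of these UMIs. The 20 genes chosen likewise for TMC2 over capFb, Cxcl14, Serpine2, Ptn and Mgp among them, gave medians of 44 in TMC2 (19 to 102), 21 in TMC1 (2 to 82.1) and 0 in capFb (0 to 11). TMC3 cells had medians of 0 (0 to 3) on the capFb genes and 26 (7 to 66.35) on the TMC2 genes. A place between both clusters was thus not particular to TMC1 on the TMC2 genes. Summed levels of TMC3 also lay between those of TMC2 and capFb on capFb genes such as Pi16 and Igfbp5, both at 217 CPM. Those 2 were lower in TMC3 than in TMC1, but Anxa3 was higher in TMC3 (17.5 against 15.5 CPM). Of TMC1 cells, 70.7% lay above the 95th percentile of capFb and 55.2% at or above the 5th percentile of TMC2. In 23.9% of TMC1 cells both sums were above the 95th percentile of the opposite cluster. Spearman's correlation of both sums over TMC1 cells was -0.298, given as a description since the cells share 1 library and a fixed depth. The cells of TMC1 thus covered a wide range on both sums, with few at the capFb level and 55.2% within the TMC2 range of TMC2-side genes.

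Single genes showed the same spread. At 2000 UMIs, Pi16 was found in 34.4% of TMC1, 7.79% of TMC2 and 96.8% of capFb cells, Dpp4 in 18.5%, 6.22% and 72.4%, and Mfap5 in 69.7%, 32.1% and 98.2%. In the other direction Cxcl14 was found in 37.5% of TMC1, 88.3% of TMC2 and 5.53% of capFb cells, and Ptn in 41.8%, 82.0% and 8.99%. In each case the share in TMC1 lay between those of TMC2 and capFb.

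**Figure D3:**
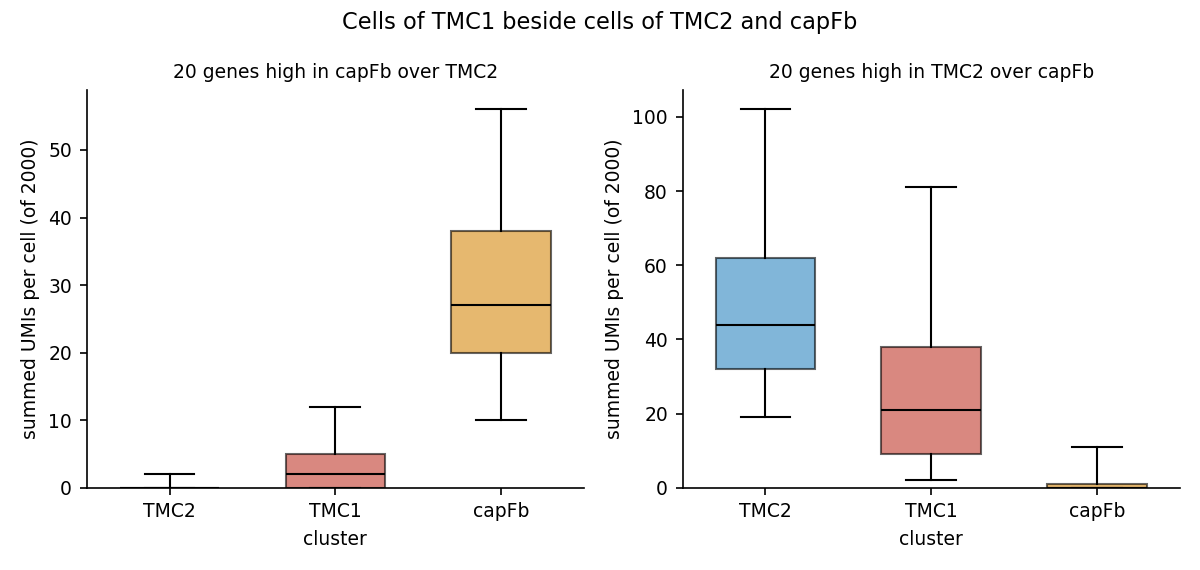
UMIs per cell, out of 2000, of the 20 genes high in capFb over TMC2 (left) and of the 20 genes high in TMC2 over capFb (right), by cluster; boxes span the quartiles with a line at the median, and whiskers the 5th to 95th percentile of cells. TMC1 lies between both clusters, with a median of 2 on the left (27 in capFb) and 21 on the right (44 in TMC2).

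Within TMC1, a small number of genes had a variance far above their mean. Over 3584 genes with a mean of at least 0.1 UMI in the 1370 cells thinned to 2000 UMIs, the median ratio of variance to mean was 1.07, 172 genes had a ratio of at least 2 and 30 of at least 5. The widest was Apod (apolipoprotein D, ratio 160), of whose UMIs 91.7% lay in 14 cells and which reached 1046 UMIs in 1 cell before thinning. Mgp, an inhibitor of calcification in the matrix, followed at 38.4, then Apoe (18.8), Gsn (18.0), Col1a1 (16.4), Obp3 (15.3), Col3a1 (14.2), Fabp4 (12.7), Igfbp3 (10.6), Cfb (9.95), Cxcl12 (8.90) and Cxcl14 (8.73). For Fabp4, 62.2% of the UMIs lay in 14 cells. Obp3 belongs to a family of near-identical lipocalin genes, so its counts are uncertain. The first component of variation (1.26% of variance) had ribosomal protein genes as 22 of its 25 highest genes and correlated at -0.425 with the mitochondrial share. The second (0.643%) set Igf1, Bmper, Cfd, Igfbp3, Fabp4 and Fgf10 at one end against Mgp, Smoc2, Igfbp6, Serpine2 and Dpp4 at the other, and 15 of the 25 genes at the Igf1 end were ribosomal protein genes.

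The cells with Cfd were described further because Cfd was the gene led most; this choice was made after its values were seen, and the following values are a description. Of the 1377 TMC1 cells 218 held a Cfd UMI, 64 of them exactly 1 and 32 at least 10, with a maximum of 43. Those cells had a median of 11084 UMIs against 9550 in the other 1159. At least 2 of Bmper, Fabp4 and Pparg were found in 63.8% of cells with Cfd and 4.40% of those without, and in 29.7% of cells with 1 Cfd UMI and 77.9% of those with more. After thinning, which left 121 cells with a Cfd UMI and 1249 without, Bmper was found in 54.5% and 8.33%, Fabp4 in 33.1% and 4.72%, Pparg in 23.1% and 3.12%, and Lpl in 80.2% and 45.1%. On the authors' UMAP 27.3% of the 20 nearest TMC1 cells of a cell with Cfd also had Cfd, against 13.6% around cells without. Genes of fatty acid handling were thus found in the same cells as Cfd. Immediate-early and heat-shock genes, which respond to cell handling, were higher there too: 6 of 21 compared were at least 2-fold higher in cells with Cfd and 0 lower, with a median ratio of 1.73 where all genes had 0.949. Fos was at 839 CPM in cells with Cfd and 380 in cells without, Jun at 802 and 333, Atf3 at 149 and 38.2, and the chaperone gene Hsph1 at 426 and 162. Their part in the other differences was not tested.

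Of 10031 genes compared between cells with and without Cfd, 185 (1.84%) were at least 2-fold higher and 549 (5.47%) at least 2-fold lower in cells with Cfd. Fabp4 was at 800 CPM in cells with Cfd and 16.8 in cells without, a ratio of 47.7 (41.1 to 55.6), and Bmper at 461 and 33.8. Prlr, the prolactin receptor, was at 116 and 10.1 CPM, and Rbp4, the carrier of retinol, at 98.5 and 9.49. Pparg was 8.11-fold higher. Several secreted factors were higher as well. Igfbp3 was at 3265 and 654 CPM, Fgf10 at 345 and 76.6, Ccl11 (eotaxin) at 182 and 35.3, C6 at 108 and 22.0, Igf1 at 4433 and 2130, and Cxcl12 at 1637 and 695. Adam12 was at 626 and 146 CPM, and the adhesion molecule Vcam1 at 547 and 173.

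Other genes of TMC1 were lower in the same cells. Mgp was at 2016 CPM in cells with Cfd and 11483 in cells without, Serpine2 at 155 and 840, Dpp4 at 31.3 and 182, Pi16 at 145 and 424, and Hsd11b1, which regenerates active glucocorticoid, at 92.8 and 451. Bmp4 was at 46.0 and 186 CPM and Sfrp1 at 404 and 1388. Col1a1 was nearly equal, at 7555 and 7444 CPM. Of 127 genes led by TMC1 that could be compared, 35 were at least 2-fold higher and 37 at least 2-fold lower in cells with Cfd, so the genes that set TMC1 apart did not all lie in the same cells. Gfra1, for example, was at 14.7 CPM in cells with Cfd and 41.0 in those without.

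Markers of other cells were compared between the same cells. The adipocyte list differed most, at 2407 CPM in cells with Cfd and 430 in cells without, mostly through Lpl and Fabp4, and at least 3 UMIs of it were found in 92.2% and 52.1% of cells. Endothelial markers summed to 26.4 CPM in cells with Cfd and 25.7 in cells without, and at least 3 such UMIs were found in 1.83% and 1.12%. Fabp4 was most abundant in capillary endothelium, and the part of endothelial RNA in its level was not tested. Myeloid and B cell markers summed to 61.9 and 32.2 CPM, of which Cd14 alone gave 51.7 and 23.1, and at least 3 such UMIs were found in 5.96% and 0.777% of cells. The part of myeloid RNA in the Cfd values was not tested. With the TMC1 cells that held Cfd left out, and such cells kept in the other clusters, 187 genes were led by TMC1, 146 of them among the 182. In that setting Bmper was led 1.51-fold, C6 1.81-fold, Cyp1b1 5.24-fold and Gfra1 5.42-fold, and Fabp4 fell to 0.396 of the TMC3 level. Igfbp3 was then 1.03-fold, Fst 1.23-fold, Adam12 1.42-fold and Tbx18 1.08-fold the next cluster, and Pparg 0.966 of it, all under the 1.5-fold threshold. Without the 218 cells with Cfd, the leads of these genes and of Fabp4, Bmper and C6 were thus smaller or gone. The lead of Gfra1 was not. The direction of these changes was set by the choice of cells, since Gfra1 was lower in cells with Cfd and the other genes were higher there. The values are therefore a description of how much of each lead lay in those cells, and not a test.

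**Figure D4:**
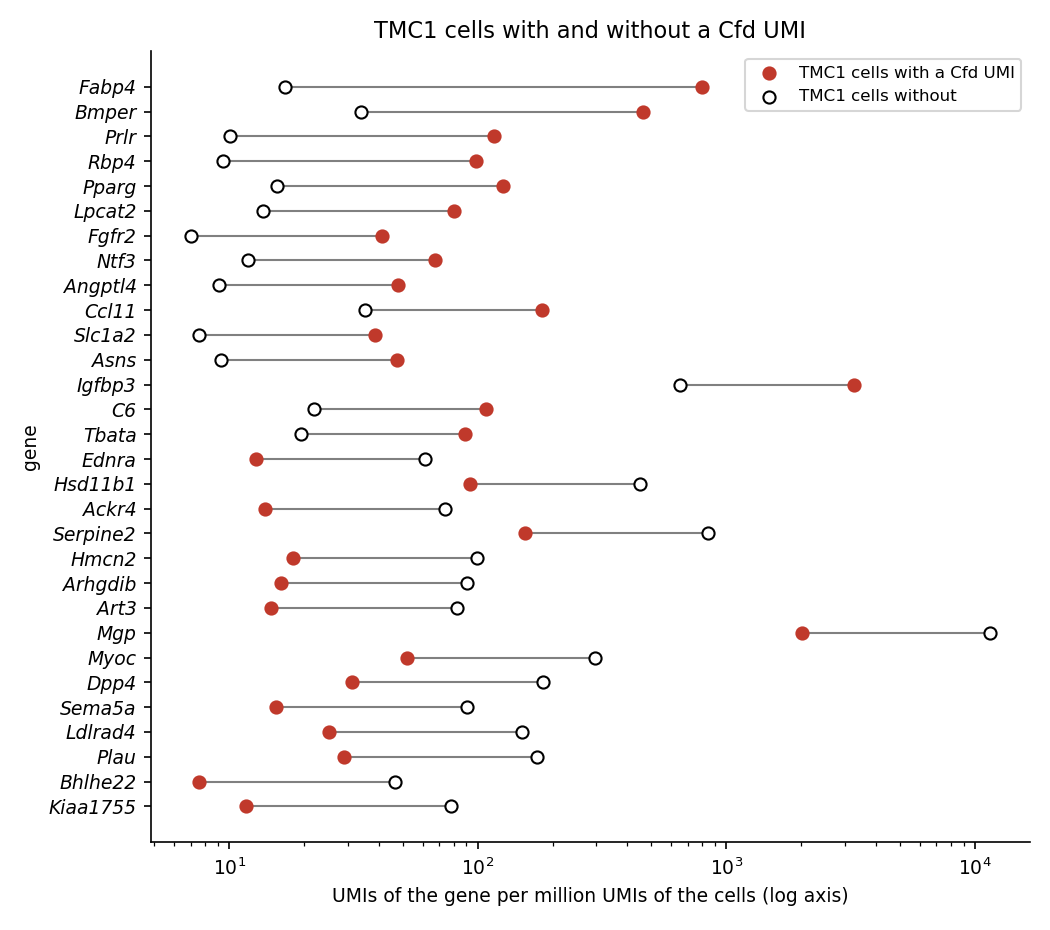
Level in CPM, on a log axis, of the 15 genes with the highest and the 15 with the lowest ratio between TMC1 cells with a Cfd UMI (filled, 218 cells) and without one (open, 1159 cells). Fabp4, at 800 and 16.8 CPM, shows the widest gap, and Mgp, at 2016 and 11483, is among the genes lower in cells with Cfd.

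In the section, cell types had been assigned by the authors to square bins of 20 coordinate units with RCTD, which splits the RNA of a bin into up to 3 reference types and gives each a weight. The reference was built from these rat libraries together with published mouse data, so the labels are not independent of the clusters above. Of 592087 labelled bins only 75 had TMC1 as the first label, of which 34 were marked as confident. Of these, 70 were among 123373 capsular bins (0.0567%, 0.0442 to 0.0717%), 4 among 409180 cortical bins (0.000978%), 1 in the region named mECA and 0 among 19354 bins of the region named mEFA (read here as the epithelium-free area of the study's title), which at 3 counts of the total allows a share of up to 0.0155%. The capsular share was 58.0 times (21.2 to 159) the cortical one, beside 46.4 times (14.4 to 150) for TMC2, 8.56 for TMC3, 2.86 for TMC4 and 166 (22.9 to 1200) for capFb. The intervals of TMC1, TMC2 and capFb overlapped. There was 1 section and neighbouring bins share tissue, so these intervals cover counting error only.

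In any label place TMC1 was assigned to 1752 bins, as the second in 1486, with a median weight of 0.179. Of these, 1412 were capsular, 296 cortical (0.0723% of cortical bins), 22 in mECA (0.0548%) and 22 in mEFA (0.114%, 0.0713 to 0.172%). The ratio of the capsular to the cortical share was 15.8 (14 to 17.9). The same ratio was 16.8 (14.5 to 19.4) for capFb, 9.34 for TMC2, 3.15 for TMC3 and 1.57 for TMC4. The intervals of TMC1 and capFb overlapped, and in this count of labels in any place both lay above the ratios of TMC2, TMC3 and TMC4. Across the 4 quartile groups of bins by depth, from shallow to deep, the ratio for TMC1 was 26.3, 19.9, 16.4 and 10.3, so it was above 10 at every depth and lower in deeper bins.

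The labels crowded on the capsule line itself. Of all labelled bins 2.67% lay on the drawn line, but 1050 (59.9%) of the TMC1 bins did. TMC1 was a label of 6.64% (6.26 to 7.04%) of bins on the line, 1.02% at up to 20 units from it, 0.247% at 20 to 50, 0.106% at 50 to 100 and 0.0746% at 100 to 200. Beyond 200 units the share stayed between 0.0686% and 0.0767%. The other fibroblast labels were frequent on the line too, at 4.74% of bins for TMC2, 4.92% for TMC3, 2.35% for TMC4 and 5.13% for capFb. Bins on the line had a median of 347 UMIs, all labelled bins 326, and bins with TMC1 in any place 371.5.

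**Figure D5:**
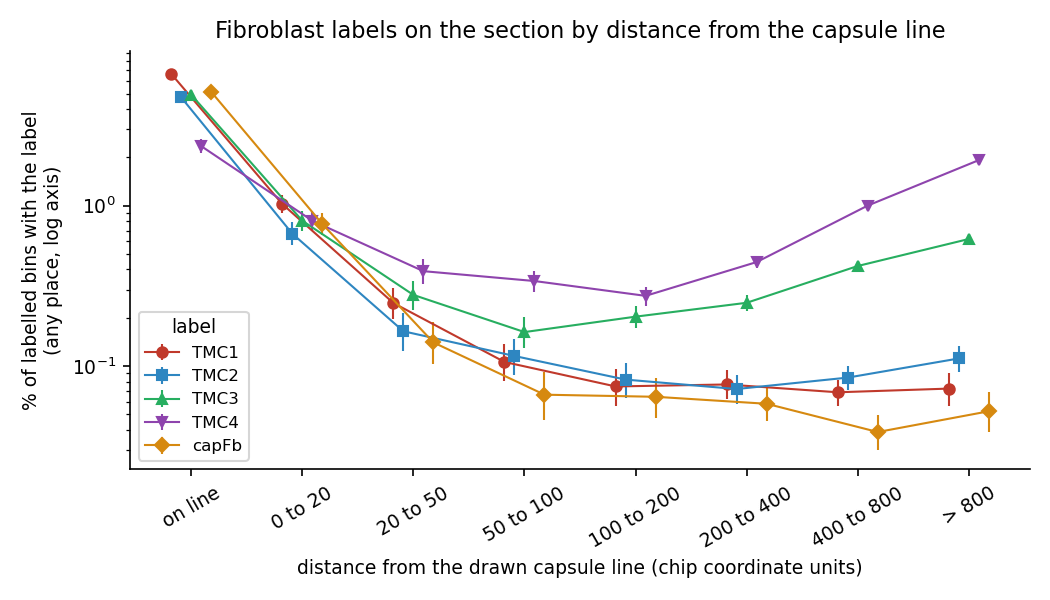
Percent of labelled bins with each fibroblast label in any place, on a log axis, by distance from the drawn capsule line in chip coordinate units, with 95% intervals for counting error. The TMC1 share falls from 6.64% on the line to 0.0746% at 100 to 200 units and is level beyond that.

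The bins that held TMC1 mostly held thymocyte labels as well, at rates near those of the capsular area. Double-negative thymocytes (DN), the earliest stage, were a label in 875 of the TMC1 bins (49.9%), against 51.8% of all capsular bins. Double-positive thymocytes (DP) were a label in 23.5%, against 27.8%. Cortical epithelium (cTEC) was a label in 1.83% of TMC1 bins and 14.2% of capsular bins. These shares are not matched: TMC1 takes 1 of up to 3 label places in its bins, and 59.9% of them lay on the capsule line. A lower share is therefore not read as fewer such cells beside TMC1. Another TMC1 bin lay within 60 units of 60.4% of TMC1 bins. That share was not computed for other labels and is not read as clustering beyond the crowding on the line. No bin held TMC1 together with another fibroblast label. Whether the absence of shared bins comes from how the labels were assigned was not tested. It is therefore not read as a separation of these cells in the tissue. In a second deposited table, made from segmented cell outlines, the ratio of the capsular to the cortical share of first labels was 110.5 (27 to 451), from 64 capsular and 2 cortical outlines. It was 58.7 (18.3 to 188) for capFb, with 0 cortical outlines set to 3, and 31.7 (13.6 to 73.5) for TMC2. TMC3 had 6.74 and TMC4 0.711. Here too the intervals of TMC1, TMC2 and capFb overlapped. The same table had TMC1 as the first label of 3 among 23161 outlines of mEFA (0.0130%, 0.00267 to 0.0378%), where the bins had 0 first labels.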

How the data were processed

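Thymic stromal cells and thymocytes of Lewis rats gave 1 droplet library each, and 1 thymus section was read on a Stereo-seq chip. The deposited counts are whole UMIs per gene and barcode; the submitters' processing notes name Cell Ranger 8.0.0, Seurat 5.3.0 and the genome build mRatBN7.2. The authors kept cells with 501 to 6999 genes and a deposited percent of mitochondrial UMIs under 5, as the values of their annotation show, and named the clusters. The weights of RCTD labels in the section are fractions given by the authors. Fractions and region names were used as deposited.

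Members were the cells whose deposited cluster name is TMC1. The members and the 34 gene lists were chosen with earlier results of these data known. UMIs were summed per cluster and scaled to CPM. With 1 library per group no test was run, and a gene was called by size alone: at least 1.5-fold against all 4 other fibroblast clusters or 2-fold against 1. A level of 0 was set to 3 UMIs in a ratio. Depth per cell gives the precision of the intervals, which are at the 95% level.

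The text names the label's markers, the 15 called genes highest and up to 12 lowest in TMC1, the 5 at each end of a pair, and the 12 most variable. These needed a symbol, 100 UMIs and a UMI in 10% of cells of the higher cluster; of the lists, it names members called or of at least 100 CPM. Cd14, Il7, Wt1, Msln, other marker genes and the genes set beside Cfd were named after their values were seen. No row was found for Cmah, Tnxb and Thpo. Thinning drew UMIs without replacement (seed 7). No doublet caller was run and no doublets were removed here; 38 barcodes occur in both libraries, none of them of a TMC1 cell. Gene coordinates were not used. Scripts (Python 3.11.15, numpy 2.4.6, scipy 1.17.1, pandas 2.3.3, matplotlib 3.10.9) were tested on simulated data. Alternatives were other choices of cells, weights, totals, depth and filters, and, for the section, of labels, bins and table.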

Additional observations from a re-analysis of the deposited data

How the results depend on the processing

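No paired analysis was possible because stroma, thymocytes and section were 1 sample each, and no value has a replicate check. Of 100 alternative counts of called genes 80 were within 1.5 times the reported one. With a filter of 30 UMIs in place of 100, 304 genes were higher and 193 lower than in all 4 clusters, 927 and 759 against TMC2, 1148 and 1816 against TMC3, and 951 were lower against capFb. With a filter of 500 UMIs these counts were 87 and 16 against all 4, 296 and 216 against TMC2, 457 and 702 against TMC3, 1013 and 1040 against TMC4, and 856 and 384 against capFb; fewer or more genes entered by construction. Genes lower than in all 4 numbered 137 in cells free of other cells' markers and 159 in thinned cells, where 640 were lower than in TMC2; the cause was not tested. Of the 182 genes led by TMC1, at least 75.8% stayed called under each other choice of cells, weights, totals or depth. Of 607 alternative ratios of named genes 513 stayed within their counting interval, 93 moved out of it and 1 changed direction: Fabp4, at 0.396 of the TMC3 level without the cells that held Cfd. Leaving those cells out, dividing by the median ratio, the confident labels and the merged label column were chosen after seeing the data. The TMC1 share was 16.8% of fibroblasts alone, and the capsular ratio was 15.8 with labels in any place. A ratio from bins given 1 type could not be computed, since none had TMC1 in either region. Low counts limit genes found in under 10% of TMC1 cells.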

Other observations

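Genes of handling stress were higher in TMC1 than in TMC2 for a few members and lower than in TMC3. Of 22 immediate-early and heat-shock genes, 3 were at least 2-fold higher and 0 lower than in TMC2, 0 and 9 against TMC3, 1 and 4 against TMC4, and 3 and 4 against capFb, and none was led by TMC1. The median ratio was 1.25 against TMC2, where all genes had 0.992, and 0.539 against TMC3, where all genes had 0.932. The heat-shock pair Hspa1a and Hspa1b is near-identical, so the counts of each are uncertain. Of 9 cell cycle genes with enough UMIs, 0 were higher and 1 lower than in TMC2, and 0 and 3 against TMC3. Of 14 genes of retinoic acid metabolism and response, 2 were higher and 1 lower than in TMC2, and 5 and 2 against TMC3. Aldh1a3, an enzyme that makes retinoic acid, was at 150 CPM in TMC1, 152 in TMC2, 87.6 in TMC3, 25.5 in TMC4 and 157 in capFb, and its relative Aldh1a2 at 57.7, 64.0, 87.1, 60.8 and 134.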
